A study of Mus musculus with 6 samples.

Results

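The AGC kinases are a family of serine/threonine protein kinases named after protein kinases A, G and C. Their members were taken from a list of 47 gene symbols, chosen with earlier results of these data known, and kept where the mean normalized signal over the 6 hearts was at least 10. By that rule 45 of the 47 were members, out of 21705 genes in the table and 13581 that passed the same mean and were tested. The mean level alone chose among the listed genes. Mastl stood just inside with a mean of 11.5, and Mast1 and Rps6ka6 stood outside with 9.16 and 5.67. Mastl reached the mean in both arms (10.9 in trametinib and 12.1 in vehicle hearts), as did the other 44 members, so none passed through one arm alone.

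Messenger RNA was sequenced from whole hearts of wild-type FVB female mice, 12 to 16 weeks old. One arm received trametinib, which blocks the ERK-activating kinases MEK1 and MEK2, in a daily dose of 3 mg/kg over 14 days. The other arm received vehicle, named PBS in the deposited table, once a day over the same 14 days. There were 3 hearts per arm, each from its own animal, so p-values measure the spread between animals. Both arms were wild type, and each library held all cell types of the heart, so fewer cells of a type and less RNA per cell cannot be told apart.

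AGC kinases share a catalytic fold whose activation usually needs phosphorylation of an activation loop, often by the master kinase PDK1, and of a hydrophobic motif near the C terminus. In the heart they relay adrenergic signals (protein kinase A, the GRKs), growth and insulin signals (AKT, S6 kinase, SGK), calcium and lipid signals (protein kinase C), small GTPase signals (ROCK, PKN) and Hippo signals (LATS). The p90 ribosomal S6 kinases (RSKs) are phosphorylated directly by ERK, the kinase downstream of the drug's targets. Transcript levels say nothing of kinase activity, which depends on these phosphorylations.

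Values are a normalized signal, which the authors had brought to a common scale across libraries, with totals of 21656431 to 22330993. The estimated depth was 23033856 to 24691501 reads in trametinib hearts and 14304826 to 16046500 in vehicle hearts. On the first principal component, with 57.2% of the variance, trametinib replicate 3 stood apart from its arm (-56.94, against -27.37 and -30.58), with vehicle hearts between 28.68 and 47.17. Cardiomyocyte markers summed to 1586331 to 1669678 in trametinib hearts and 1394207 to 1442606 in vehicle hearts. No marker was at 0, 3 of 8 were higher and 3 lower, and their median log2 fold change was 0.03. Summed neutrophil markers were 1663 to 3544 against 137 to 519, with 7 of 7 tested markers higher, and summed erythroid markers 51164 to 148836 against 17735 to 25453, with 4 of 4 higher. Macrophage markers summed to 3604 to 4969 against 4774 to 5190 (2 of 8 lower), endothelial markers to 21623 to 24069 against 18602 to 22171 (2 of 8 higher and 1 lower) and smooth muscle markers to 9929 to 14776 against 9785 to 14654 (3 of 8 higher). Fibroblast markers summed to 29237 to 31839 against 30413 to 39415 (1 of 7 higher and 5 lower), T and NK cell markers to 82.1 to 107 against 40.8 to 101 (4 of 4 tested markers not past the threshold), B cell markers to 5.35 to 11.3 against 7.70 to 38.2 (none tested) and proliferation markers to 121 to 137 against 282 to 471 (4 of 6 lower). The part of these markers in the kinase results was not tested. Depth was addressed only by thinning of estimated reads and by voom, whose counts are given at the end.

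Most AGC kinase transcripts that differed were higher in trametinib hearts, by modest factors. With limma, at a Benjamini-Hochberg adjusted p below 0.05 over all genes tested, 25 of 45 members (55.6%) were higher, 2 (4.44%) were lower and 18 did not pass. Of all genes tested, 21.6% were higher and 22.8% lower. The median log2 fold change of the members was 0.31, where that of all tested genes was -0.01, and 33 of 45 members had a value above 0. Only 1 member, the protein kinase C isoform Prkcb, differed by 2-fold or more. The 2 lower members were Prkaca, the main catalytic subunit of protein kinase A in heart, and Dmpk, the myotonic dystrophy protein kinase. All 3 trametinib values lay above all 3 vehicle values for 25 members, where 27.0% of all genes did so, and below them for 4 (Prkaca, Dmpk, Rps6kb2 and Akt2), where 29.5% did. Without trametinib replicate 3, the heart that stood apart, 18 members were higher and 2 lower, with 15.8% and 18.5% of all genes. Of the 25 higher members, 17 kept the call whichever heart was left out, as did both lower members. Over all genes tested, a heart left out gave 2145 to 2799 higher, in place of 2939. It gave 2490 to 2856 lower, in place of 3098.

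**Figure D1:**
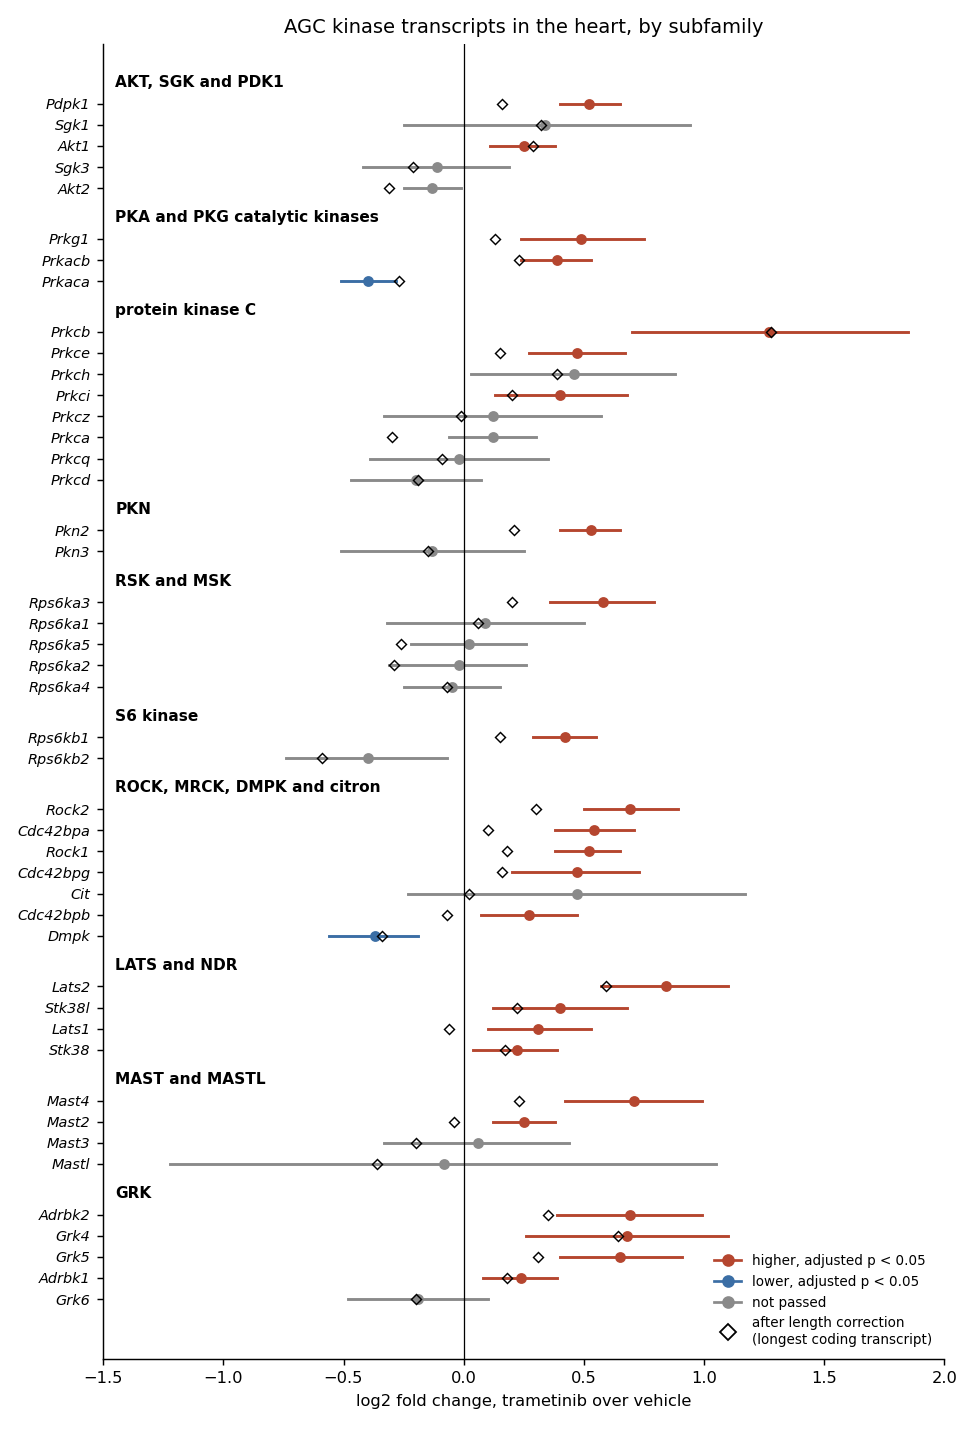
Log2 fold change of each of the 45 AGC kinases, trametinib over vehicle, with the 95% interval from limma (n = 3 hearts per arm), grouped by role and coloured by the call at an adjusted p of 0.05. Open diamonds mark the value after correction for transcript length. Higher members lie right of 0 and are spread over every role, whereas only Prkaca and Dmpk lie left of it with a call.

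Transcript length went with these differences and has to be read beside them. Across the tested genes with a length (13512) the log2 fold change rose with the length of the longest protein-coding transcript, with a Spearman correlation of 0.51, and over the 45 members it was 0.55. Both are descriptions across genes that share the same 6 libraries. The members were long, with a median of 5191 nt against 3167 nt for the tested genes, and 35 of 45 exceeded that median. The 25 higher members had a median of 6207 nt and the other members 3681 nt. In the longest of 5 equal bins of the genes (5174 to 123179 nt) 51.2% of all genes were higher and 4.22% lower, and there 17 of 23 members were higher, with a median log2 fold change of 0.47 where all genes of that bin had 0.35. In the next bin down (3695 to 5172 nt) 3 of 7 members were higher, beside 29.1% of all genes, and the members' median of 0.12 lay below the 0.14 of all genes there. In the middle bin (2702 to 3694 nt) 4 of 13 were higher and 1 lower, beside 15.5% and 15.2% of all genes, with medians of 0.09 for the members and 0.01 for all genes. The bin below it (1801 to 2701 nt) held 1 higher and 1 lower member of 2, and the shortest (66 to 1800 nt), where 57.7% of all genes were lower, held none.

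**Figure D2:**
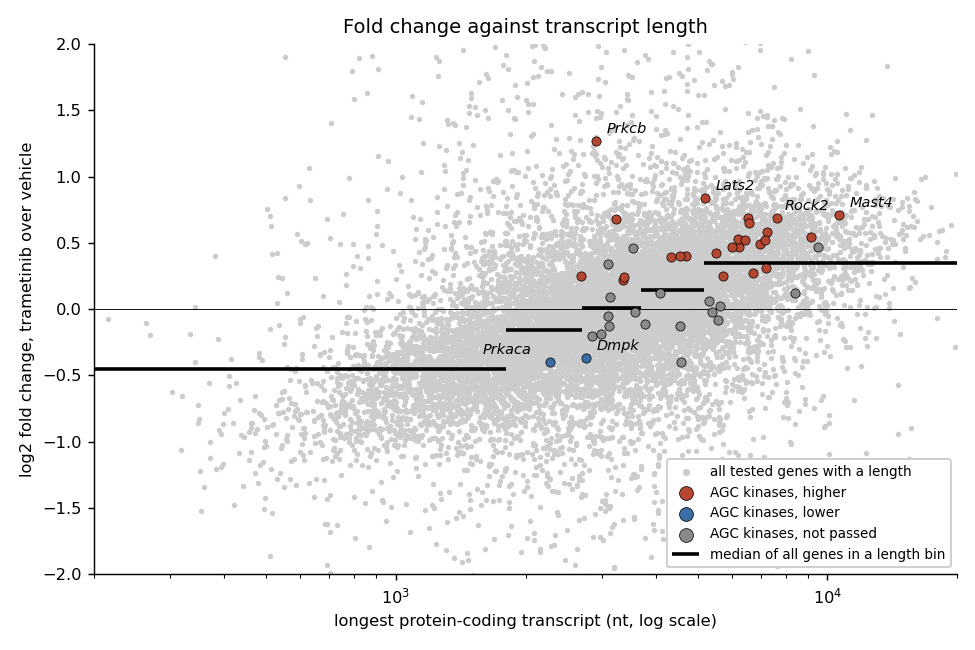
Length of the longest protein-coding transcript in nt (log axis) against the log2 fold change, trametinib over vehicle, for all tested genes (light grey) and the 45 AGC kinases (coloured by call), with axes limited so that a few genes fall outside. Black lines are the medians of all genes in 5 length bins. The grey cloud slopes upward with length, and most higher kinases sit at its long end, with Prkcb (2911 nt, 1.27) above their level.

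Each member is therefore given with its value after a lowess correction for that length within each library, an alternative added after the data were seen, called here the length correction. Levels are given as normalized signal and differences as log2 fold changes ± SE from limma, trametinib over vehicle, with 95% intervals. With the length correction 8 members were higher (Prkcb, Lats2, Grk4, Rock2, Akt1, Pkn2, Rock1 and Prkacb) and 5 lower (Prkaca, Dmpk, Rps6kb2, Akt2 and Prkca), with a median of 0.13, where 12.9% of all genes were higher and 15.9% lower. A second correction, for mean transcript length and then GC content, left 20 members higher and 1 lower (Prkaca), with a median of 0.25, where 16.5% of all genes were higher and 17.9% lower. Of the 25 higher members, 7 kept the call under both corrections, namely the first 8 without Prkacb.

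PDK1, AKT and SGK relay insulin and growth-factor signals. Pdpk1, which encodes the PDK1 kinase that phosphorylates the activation loop of many other AGC kinases, had 2042, 2022 and 2040.2 in trametinib hearts, against 1359, 1419 and 1465 in vehicle hearts. Its 2 arms lay far apart beside a spread of 11 (SD) in trametinib hearts and 53.2 in vehicle hearts. The log2 fold change was 0.52 ± 0.05 (SE; adjusted p = 0.000459), and the length correction reduced it to 0.16 (adjusted p = 0.0657) for this transcript of 7161 nt. Akt1, the AKT isoform tied to cardiac growth, had 4679.5, 4411 and 4841 in trametinib hearts, against 3862, 3814 and 4062 in vehicle hearts. It was higher by 0.25 ± 0.06 (adjusted p = 0.0107), with separate arms. Its longest transcript has 2690 nt, and the length correction left it at 0.29 (adjusted p = 0.00717), and correcting for length and GC content gave 0.63 (adjusted p = 0.000755).

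Akt2, the isoform tied to insulin-stimulated glucose uptake, had 3114, 3236 and 3245 in trametinib hearts, against 3456, 3599 and 3423 in vehicle hearts. Its arms were separate in the other direction, with a log2 fold change of -0.13 ± 0.05 that did not pass (adjusted p = 0.0775). It passed with quantile normalization (-0.20, adjusted p = 0.0143) and after the length correction (-0.31, adjusted p = 0.00607). Sgk1, a kinase induced by glucocorticoids and stress, had 2548, 2167 and 2945 in trametinib hearts, against 1344, 2877 and 2057 in vehicle hearts. Vehicle replicate 2 lay among the trametinib hearts, and the arms overlapped, with a log2 fold change of 0.34 and an interval of -0.25 to 0.94 (adjusted p = 0.31). Sgk3, a relative of Sgk1 on endosomes, had 426, 426 and 528 in trametinib hearts, against 572, 481 and 442 in vehicle hearts (-0.11 ± 0.13, adjusted p = 0.503), and its arms overlapped.

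Protein kinase A mediates the beta-adrenergic response of the heart, and its 2 main catalytic subunit genes differed in opposite directions. Prkaca had 4877, 4904 and 5034 in trametinib hearts, against 6318, 6513 and 6658 in vehicle hearts. Every trametinib heart lay below every vehicle heart, with a log2 fold change of -0.40 ± 0.05 (adjusted p = 0.000765). This call held after the length correction (-0.27, adjusted p = 0.0046), after the correction for length and GC content (-0.42, adjusted p = 0.000948) and with any heart left out (adjusted p up to 0.00546). Prkacb, the second catalytic subunit, had 2316, 2094 and 2185 in trametinib hearts, against 1613, 1713 and 1714 in vehicle hearts. The transcript was higher by 0.39 ± 0.06 (adjusted p = 0.00214), and by 0.23 (adjusted p = 0.026) after the length correction, whereas the length and GC correction ended the call (0.12, adjusted p = 0.167). Prkg1, the cyclic GMP-dependent kinase downstream of nitric oxide and natriuretic peptides, had 315, 283 and 269 in trametinib hearts, against 223, 197 and 194 in vehicle hearts. Its arms were separate and it was higher by 0.49 ± 0.11 (adjusted p = 0.00904), but it did not pass after the length correction (0.13, adjusted p = 0.462) or the correction for length and GC content (0.34, adjusted p = 0.0528).

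The start regions of these 2 subunit genes, which differed in opposite directions, and of Lats2 and Prkcb, the 2 members with the highest fold changes, are shown from RefSeq (build GRCm38.p6), 250 bases before to 50 after the annotated start. Capitals mark CCAAT in the first and the TEAD letters GGAATG in the third, and the other pair held none of the capitalised motifs. Their positions are chr8:83972728-83973027 on the plus strand for Prkaca, chr3:146812897-146813196 on the minus strand for Prkacb, chr14:57746074-57746373 on the minus strand for Lats2 and chr7:122288875-122289174 on the plus strand for Prkcb.
Prkaca: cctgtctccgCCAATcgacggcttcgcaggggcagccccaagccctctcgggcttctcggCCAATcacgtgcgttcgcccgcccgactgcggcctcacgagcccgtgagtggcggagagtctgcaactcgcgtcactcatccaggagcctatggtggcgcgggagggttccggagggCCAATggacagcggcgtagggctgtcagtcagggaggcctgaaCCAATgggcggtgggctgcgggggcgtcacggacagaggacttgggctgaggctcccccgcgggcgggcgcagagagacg
Prkacb: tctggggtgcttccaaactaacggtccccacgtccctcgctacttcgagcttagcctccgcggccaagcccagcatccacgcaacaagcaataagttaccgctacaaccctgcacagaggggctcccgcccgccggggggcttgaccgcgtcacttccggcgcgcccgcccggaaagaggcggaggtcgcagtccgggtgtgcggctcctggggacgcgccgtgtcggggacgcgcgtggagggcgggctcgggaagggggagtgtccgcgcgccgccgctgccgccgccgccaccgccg
Lats2: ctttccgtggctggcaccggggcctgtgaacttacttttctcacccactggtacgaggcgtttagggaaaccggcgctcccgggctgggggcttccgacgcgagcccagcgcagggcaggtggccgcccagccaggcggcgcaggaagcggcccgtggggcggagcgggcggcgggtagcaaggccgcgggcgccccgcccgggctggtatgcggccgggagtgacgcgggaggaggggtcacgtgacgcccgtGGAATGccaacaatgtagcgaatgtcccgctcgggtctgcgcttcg
Prkcb: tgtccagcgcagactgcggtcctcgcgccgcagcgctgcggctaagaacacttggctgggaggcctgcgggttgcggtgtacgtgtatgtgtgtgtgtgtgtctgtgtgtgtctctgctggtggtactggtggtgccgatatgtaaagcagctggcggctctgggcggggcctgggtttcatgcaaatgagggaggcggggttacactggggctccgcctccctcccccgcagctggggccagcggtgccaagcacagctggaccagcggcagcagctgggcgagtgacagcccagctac

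The Prkaca window held CCAAT 4 times, at 240, 190, 73 and 30 bases before the start, and the Prkacb window held none. In the Lats2 window GGAATG began 4 bases after the annotated start, not before it. All 4 windows contained GC boxes, the letters GGGCGG on either strand, left in lower case. Of the 45 members, 36 matched a RefSeq window. These 36 had 60 windows between them, and only the first listed window of each gene was used, here and for all genes. Other annotated starts were not counted. The median GC content of the 36 windows was 65.0%, against 52.7% for all 27025 genes with a window. Those 27025 genes, called all genes in this paragraph, were not limited to genes that passed the mean of 10, as the members were. The part of that filter in these contrasts was not tested. GGGCGG occurred in 28 of the 36, where 35.9% of all genes had it, and in 14 of the 19 higher members among them. CCAAT occurred in 11 of the 36 (37.9% of all genes), of which 2 were higher members. TATAAA occurred in 1 (14.2% of all genes), and the cyclic AMP response element letters TGACGTCA in 1, Stk38l (1.88% of all genes). The AP-1 letters TGANTCA occurred in 2 (7.93% of all genes), GGAATG in 6 (14.6%) and the STAT letters TTCNNNGAA in 3 (8.47%). Both strands were searched, and a match describes letters in this window only.

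Within a family of related kinases the mix of isoforms can be given as a share of the summed signal per kilobase of the longest coding transcript. Prkaca made up 81.1% ± 0.885 of the 2 catalytic subunits in trametinib hearts and 88.1% ± 0.163 in vehicle hearts (SD, n = 3 each), and Prkacb the rest, 18.9% and 11.9%. Of Akt1 and Akt2 together, Akt1 made up 71.0% ± 1.12 in trametinib hearts and 65.4% ± 1.28 in vehicle hearts, and Akt2 the other 29.0% and 34.6%. The S6 kinase pool was 83.0% ± 0.871 Rps6kb1 in trametinib hearts and 73.3% ± 3.22 in vehicle hearts, and the LATS pool 74.9% ± 0.290 Lats2 in trametinib hearts and 67.5% ± 3.01 in vehicle hearts. In all 4 of these pools the shares of these isoforms did not overlap between arms. With 3 hearts per arm an exact permutation test cannot go below 0.1 and 24 of the 40 shares over 14 pools reached that value, so these shares are descriptions, and the pools were formed with the genes' values known. The isoforms also differ in transcript length, such as 2276 nt for Prkaca and 4347 nt for Prkacb, and the part of length in the shares was not tested.

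**Figure D3:**
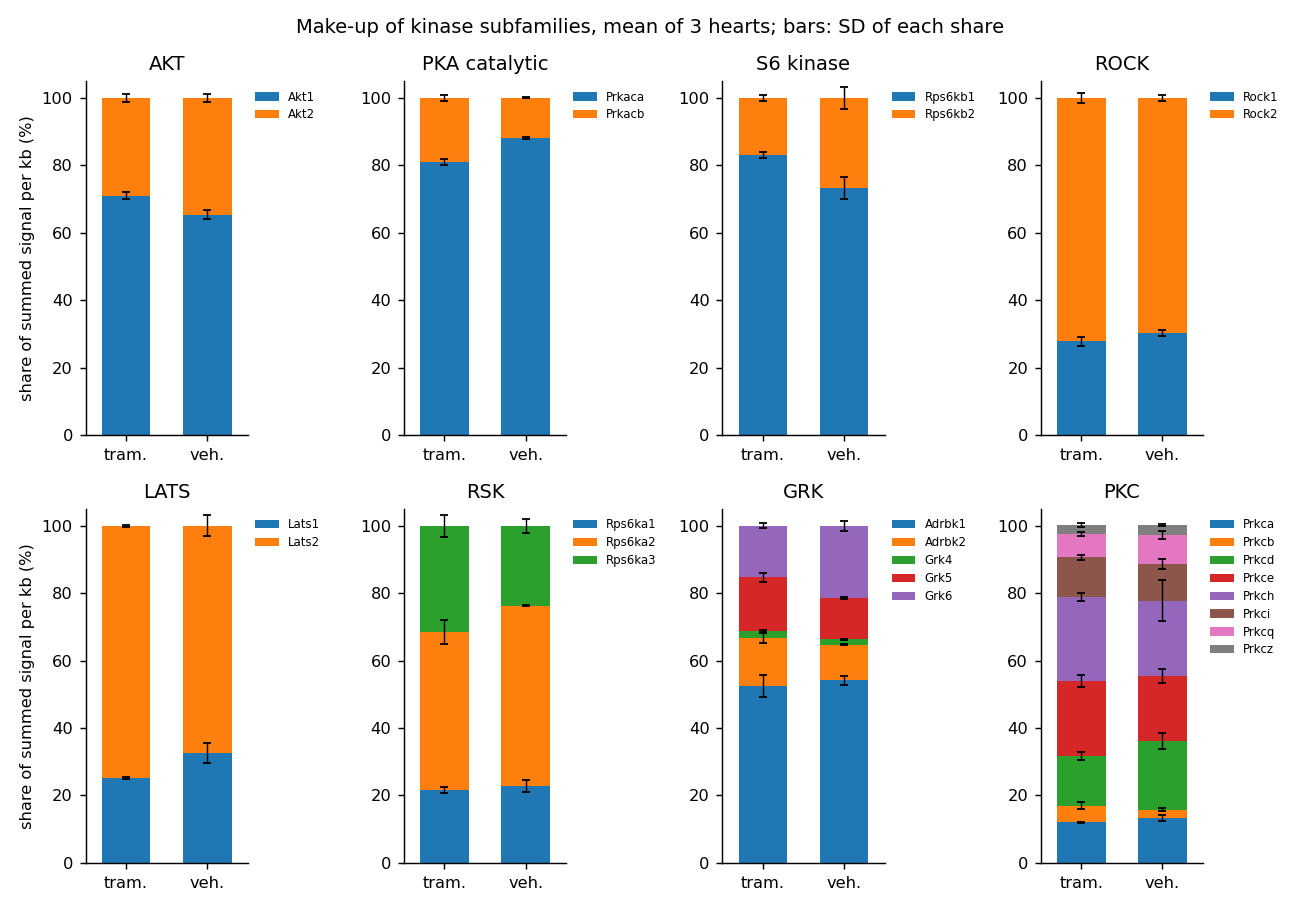
Share of each isoform in 8 kinase pools (percent of the signal per kilobase of the longest coding transcript, summed over the genes in each legend), as stacked bars of the mean of 3 hearts, trametinib (tram.) left and vehicle (veh.) right in each panel. Error bars are 1 SD of each share. Prkaca, Akt2, Rps6kb2 and Lats1 hold smaller shares in trametinib hearts than in vehicle hearts.

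Most protein kinase C isoforms respond to diacylglycerol, the conventional ones also to calcium, and the atypical isoforms to neither. Of 8 members 3 were higher and 5 did not pass, beside 21.6% higher and 22.8% lower of all genes. After the length correction 1 was higher and 1 lower, beside 12.9% and 15.9% of all genes. Prkcb, a conventional isoform also abundant in leukocytes, had 141, 101 and 162 in trametinib hearts, against 41.3, 58.6 and 65.1 in vehicle hearts. Every trametinib heart lay above every vehicle heart, by 1.27 ± 0.25 on the log2 scale (adjusted p = 0.00481), or 2.42-fold, and the length correction left it at 1.28 (adjusted p = 0.00823). Summed neutrophil markers were higher in all 3 trametinib hearts (2053, 1663 and 3544, against 297, 519 and 137), and the B cell markers were not. Of the macrophage markers 2 of 8 were lower, and 4 of 4 tested T and NK cell markers did not pass. The part of these cells in the Prkcb result was not tested.

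Prkce, a calcium-independent isoform studied in cardioprotection, had 1164, 1324 and 1334 in trametinib hearts, against 991, 849 and 916 in vehicle hearts. Its level was higher by 0.47 ± 0.09 (adjusted p = 0.00373) with separate arms, and had 0.15 after the length correction (adjusted p = 0.238). The atypical isoform Prkci was higher by 0.40 ± 0.12 (515 ± 18.6 against 392 ± 60.4; adjusted p = 0.0256), a call that remained in 1 of the 6 leave-outs (without vehicle replicate 3) and was lost in the other 5, with adjusted p up to 0.0758 (without trametinib replicate 3), and after the length correction (0.20, adjusted p = 0.20). Prkca, the conventional isoform linked to contractility, had 908, 885 and 986 in trametinib hearts, against 855, 799.7 and 899.6 in vehicle hearts. The arms overlapped, with a log2 fold change of 0.12 and an interval of -0.06 to 0.30 (adjusted p = 0.23), and the sign turned after the length correction (-0.30, adjusted p = 0.0195) for this transcript of 8409 nt. Prkch had 809 ± 81.7 in trametinib and 601 ± 167 in vehicle hearts (0.46 ± 0.18, adjusted p = 0.0771), and passed only without vehicle replicate 2 among the leave-outs (0.67, adjusted p = 0.00469). Prkcd (-0.20 ± 0.12, adjusted p = 0.205), Prkcq (-0.02 ± 0.16, adjusted p = 0.936) and Prkcz (0.12 ± 0.19, adjusted p = 0.641) did not pass.

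The PKN kinases are effectors of small GTPases. Pkn2 had the smallest p of all members, with 1816, 1790.5 and 1803 in trametinib hearts, against 1220.2, 1269.6 and 1263 in vehicle hearts. Spread within each arm was small (SD of 12.6 in trametinib and 26.9 in vehicle hearts), and it was higher by 0.53 ± 0.05 (adjusted p = 0.000413), with 0.21 left after the length correction (adjusted p = 0.0263). Pkn3 had 313 ± 17.1 in trametinib and 349 ± 84.5 in vehicle hearts (-0.13 ± 0.16, adjusted p = 0.542).

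**Figure D4:**
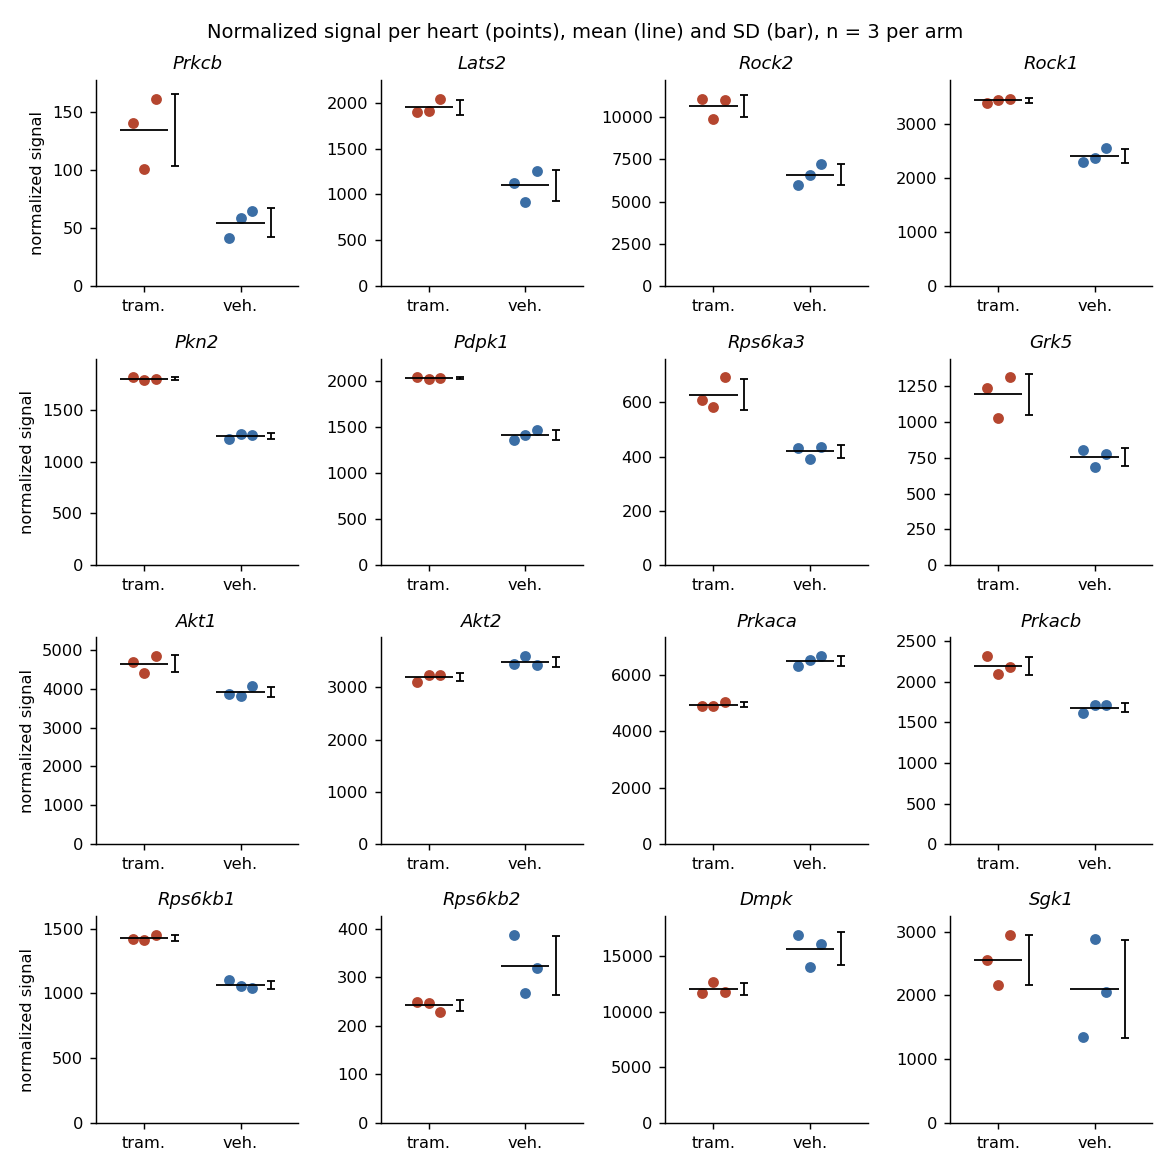
Normalized signal (linear axis from 0) in each heart for selected AGC kinases, trametinib (tram.) left and vehicle (veh.) right, with a horizontal line at each arm's mean and an error bar of 1 SD beside it (n = 3 each). Prkaca and Dmpk are lower in every trametinib heart, Rock2, Lats2 and Prkcb are higher in every trametinib heart, and the arms of Sgk1 overlap.

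RSKs are substrates of ERK and lie directly downstream of the inhibited step, and MSKs phosphorylate nuclear targets such as CREB. Rps6ka3, which encodes RSK2, was the only higher member of the 5 tested, where 21.6% of all genes were higher. It had 608, 583 and 692 in trametinib hearts, against 431, 393 and 437 in vehicle hearts. With separate arms the log2 fold change was 0.58 ± 0.09 (adjusted p = 0.00224), and 0.20 after the length correction (adjusted p = 0.142) for this transcript of 7244 nt. The other 4 did not pass, with log2 fold changes of 0.09 ± 0.18 for Rps6ka1 (RSK1), -0.02 ± 0.12 for Rps6ka2 (RSK3), -0.05 ± 0.08 for Rps6ka4 (MSK2) and 0.02 ± 0.10 for Rps6ka5 (MSK1). Their adjusted p ran from 0.673 for Rps6ka4 to 0.891 for Rps6ka5. Rps6ka2 made up 46.9% ± 3.48 of the RSK pool in trametinib hearts and 53.4% ± 0.151 in vehicle hearts, per length, and Rps6ka3 31.6% ± 3.26 and 23.8% ± 2.06. Rps6ka6 was not tested, with 6.39 ± 0.957 in trametinib and 4.94 ± 2.44 in vehicle hearts. The ERK gene Mapk3 differed by a log2 fold change of -0.19 ± 0.06 (adjusted p = 0.0337), where each correction for length turned the sign (0.05 after the length correction, adjusted p = 0.563). The Mapk3 call held only without vehicle replicate 2 among the leave-outs (adjusted p up to 0.119 in the others).

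S6 kinases phosphorylate ribosomal protein S6 downstream of mTORC1. Rps6kb1, which encodes the main form, had 1419.7, 1409.7 and 1452 in trametinib hearts, against 1102, 1057 and 1041 in vehicle hearts. The gene was higher by 0.42 ± 0.06 (adjusted p = 0.00108), and had 0.15 after the length correction (adjusted p = 0.108). Rps6kb2, the second form, had 249, 248 and 229 in trametinib hearts, against 387, 267 and 319 in vehicle hearts. Its arms were separate in the other direction, but it missed the threshold (-0.40 ± 0.14, adjusted p = 0.0527). It passed with median-of-ratios scaling, with voom on estimated reads, with thinning and with a mean of at least 30 (adjusted p of 0.0468 to 0.0492), without vehicle replicate 2 (-0.54, adjusted p = 0.0152) and after the length correction (-0.59, adjusted p = 0.0194).

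ROCK, MRCK, DMPK and citron kinases act on the actomyosin cytoskeleton, and 5 of these 7 members were higher, where 21.6% of all genes were. The 5 have long transcripts, in the bin where 51.2% of all genes were higher, and after the length correction 2 of the 7 were higher and 1 lower (12.9% and 15.9% of all genes). Rock2, the ROCK isoform tied to cardiac hypertrophy, had 11082, 9875 and 10977 in trametinib hearts, against 5971, 6595 and 7228 in vehicle hearts. It was higher by 0.69 ± 0.08 (adjusted p = 0.000705), and by 0.30 after the length correction (adjusted p = 0.0181). Rock1, its paralog, had 3395, 3458 and 3476 in trametinib hearts, against 2297, 2384 and 2552 in vehicle hearts. The transcript was higher by 0.52 ± 0.06 (adjusted p = 0.000538), and by 0.18 after the length correction (adjusted p = 0.0329). Both ROCK genes had separate arms and kept the call with either correction and with any heart left out.

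The MRCK genes encode Cdc42-binding kinases that phosphorylate myosin light chain regulators. Cdc42bpa had 2083, 1967 and 2076 in trametinib hearts, against 1339.7, 1332 and 1535 in vehicle hearts. Its level was higher by 0.54 ± 0.07 (adjusted p = 0.00103), and had 0.10 after the length correction (adjusted p = 0.245) and 0.21 with length and GC content corrected (adjusted p = 0.0553), with a transcript of 9161 nt. Cdc42bpg had 586, 534 and 537 in trametinib hearts, against 445, 342 and 418 in vehicle hearts. The gene was higher by 0.47 ± 0.11 (adjusted p = 0.0126), a call lost without trametinib replicate 1 (0.42, adjusted p = 0.0515) and after the length correction (0.16, adjusted p = 0.312). Cdc42bpb was higher by 0.27 ± 0.09 (2882 ± 249 against 2383 ± 186; adjusted p = 0.0351). That call was lost without trametinib replicate 1 or 3 or vehicle replicate 1 or 2 (adjusted p up to 0.114) and with quantile normalization (0.21, adjusted p = 0.0639), and the length correction turned its sign (-0.07, adjusted p = 0.497).

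Dmpk, whose human counterpart carries the repeat that expands in myotonic dystrophy, was the lower member of this branch. It had 11637, 12659.8 and 11783 in trametinib hearts, against 16861, 13972 and 16071 in vehicle hearts. Every trametinib heart lay below every vehicle heart, by a log2 fold change of -0.37 ± 0.08 (adjusted p = 0.00737), or -0.34 after the length correction (adjusted p = 0.0144), while the length and GC correction ended the call (-0.21, adjusted p = 0.077). Cit, the citron kinase of cytokinesis, was low, with 63.7 ± 16.7 in trametinib and 45.9 ± 14.5 in vehicle hearts (0.47 ± 0.30, adjusted p = 0.238).

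All 4 members of the LATS and NDR branch were higher, beside 21.6% of all genes, and 1 of them after the length correction, beside 12.9%. Lats1 and Lats2 lie in the longest bin, where 51.2% of all genes were higher. LATS kinases phosphorylate and restrain the Hippo effectors YAP and TAZ. Lats2 had 1896, 1912 and 2045 in trametinib hearts, against 1125, 922 and 1257 in vehicle hearts. It was higher by 0.84 ± 0.11 (adjusted p = 0.00105), a 1.78-fold difference with arms far apart, and by 0.59 after the length correction (adjusted p = 0.00525). Lats1 had 894, 875 and 954 in trametinib hearts, against 665, 713 and 821 in vehicle hearts. The transcript was higher by 0.31 ± 0.09 (adjusted p = 0.0273), but the call was lost without trametinib replicate 1 or 3 or vehicle replicate 1 or 2 (adjusted p up to 0.0919), and the sign turned after the length correction (-0.06, adjusted p = 0.631) and with length and GC content corrected (-0.12, adjusted p = 0.289). Of the NDR kinases, which bind MOB proteins, Stk38l was higher by 0.40 ± 0.12 (534 ± 32.8 against 406 ± 63.2; adjusted p = 0.0291) and Stk38 by 0.22 ± 0.07 (1176 ± 49.2 against 1013 ± 75.5; adjusted p = 0.0489). Both calls remained without vehicle replicate 3 and were lost without any of the other 5 hearts (adjusted p up to 0.0997 for Stk38l and 0.144 for Stk38). They were also lost after the length correction, at 0.22 for Stk38l (adjusted p = 0.178) and 0.17 for Stk38 (adjusted p = 0.115). Stk38 also missed the threshold with quantile normalization (0.17, adjusted p = 0.0795) and without a filter (adjusted p = 0.0563), and Stk38l with length and GC content corrected (0.26, adjusted p = 0.115).

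The MAST kinases bind microtubules and PDZ partners, and MASTL is the Greatwall kinase of mitosis. Mast4 had 1402, 1115 and 1469 in trametinib hearts, against 778, 749 and 904 in vehicle hearts. Its level was higher by 0.71 ± 0.12 (adjusted p = 0.00298), and had 0.23 after the length correction (adjusted p = 0.159), with the longest transcript of the members at 10636 nt. Mast2, at a high level per kilobase, had 6718, 6364 and 6835 in trametinib hearts, against 5434, 5447 and 5869.7 in vehicle hearts. The gene was higher by 0.25 ± 0.06 (adjusted p = 0.00969) with separate arms, and had -0.04 after the length correction (adjusted p = 0.57). Mast3 (0.06 ± 0.16, adjusted p = 0.803) and Mastl (-0.08 ± 0.49, adjusted p = 0.903) did not pass, and the interval of Mastl ran from -1.22 to 1.05. Mast1 was not tested, with 11.8 ± 3.55 in trametinib and 6.55 ± 2.97 in vehicle hearts.

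G protein-coupled receptor kinases phosphorylate activated receptors and so dampen their signal, and 4 of these 5 members were higher (21.6% of all genes), and 1 after the length correction (12.9%). Grk5, a principal GRK of cardiomyocytes, had 1237, 1032 and 1313 in trametinib hearts, against 807, 686 and 777 in vehicle hearts. It was higher by 0.65 ± 0.11 (adjusted p = 0.00253), and had 0.31 after the length correction (adjusted p = 0.0566). Adrbk2, which encodes GRK3, had 1162, 888 and 1119 in trametinib hearts, against 694, 570.1 and 695 in vehicle hearts. The transcript was higher by 0.69 ± 0.13 (adjusted p = 0.00391), and had 0.35 after the length correction (adjusted p = 0.0632).

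Adrbk1, which encodes GRK2, the main kinase desensitising cardiac beta-adrenergic receptors, had 1976, 2066 and 1995 in trametinib hearts, against 1804, 1572 and 1761 in vehicle hearts. Its level was higher by 0.24 ± 0.07 (adjusted p = 0.026) with separate arms. The call was lost without vehicle replicate 2 or any trametinib heart (adjusted p up to 0.0754), with quantile normalization (0.17, adjusted p = 0.0968), with thinning (0.21, adjusted p = 0.0588) and after the length correction (0.18, adjusted p = 0.0662). Grk4, a low transcript in these hearts, was higher by 0.68 ± 0.18 (80.4 ± 11.9 against 49.4 ± 2.08; adjusted p = 0.0186). It lost the call without trametinib replicate 1 or 3 (adjusted p up to 0.0787) and kept it after the length correction (0.64, adjusted p = 0.0306). Grk6 had 524 ± 43.1 in trametinib and 602 ± 89.8 in vehicle hearts (-0.19 ± 0.12, adjusted p = 0.249), and was lower without vehicle replicate 2 (-0.32, adjusted p = 0.0439). Per length, the GRK pool held 15.9% ± 1.33 Grk5 in trametinib hearts and 12.3% ± 0.267 in vehicle hearts, 14.2% ± 1.53 and 10.6% ± 0.216 Adrbk2, 2.18% ± 0.257 and 1.64% ± 0.166 Grk4, and 15.3% ± 0.761 and 21.3% ± 1.46 Grk6. The arms did not overlap for these 4, and did for Adrbk1 (52.4% ± 3.29 and 54.1% ± 1.32).

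Levels per kilobase of the longest coding transcript ranged widely among the members. Dmpk stood highest, at 4356 ± 200 in trametinib and 5663 ± 541 in vehicle hearts, and Prkaca next, at 2170.0 ± 36.8 and 2854 ± 75.0. In trametinib hearts Akt1 (1726 ± 80.7), Rock2 (1393 ± 87.5) and Mast2 (1160.0 ± 42.9) followed, while in vehicle hearts Akt1 (1455 ± 49.0) was followed by Mast2 (976 ± 43.3) and Rock2 (863 ± 82.2). Per kilobase, Rock2 and Mast2 thus stood in opposite order in the arms. Their ranges of mean ± SD overlapped in vehicle hearts and did not in trametinib hearts. In signal not divided by length, Rock2 lay above Mast2 in both arms (10645 against 6639 in trametinib and 6598 against 5584 in vehicle hearts). Below them per kilobase in trametinib hearts came Sgk1 (825 ± 126), Akt2 (704 ± 16.1) and Adrbk1 (596 ± 14.0), where Sgk1 and Akt2 lay within the spread of Sgk1. Prkacb had 506 ± 25.7 and 386 ± 13.3, and at the low end Cit had 6.70 ± 1.75 and 4.82 ± 1.53, and Mastl 1.95 ± 0.541 and 2.17 ± 0.936.

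The deposited table annotates 54 genes as AGC kinases among 557 rows with a kinase family. Set beside the other kinase families on that annotation, the 49 tested AGC genes had 55.1% higher and 4.08% lower and a median (log2) of 0.31. The STE family had 32.0% higher and 4.00% lower of 50, the TKL family 36.7% and 13.3% of 30, the CMGC family 33.3% and 20.4% of 54, the CAMK family 28.3% and 13.3% of 60 and the tyrosine kinases 21 and 8 genes of 70. Metabolic kinases, with shorter transcripts (median 2978 nt against 4906 nt for AGC), had 14.6% higher and 41.7% lower of 48. After the length correction the AGC median was 0.13, with 9 higher and 5 lower, where 12.9% of all genes were higher and 15.9% lower. The CK1 family then had 2 higher and 0 lower of 10, CAMK 10 and 10 of 60, and TKL 5 and 3 of 30. STE had 5 and 3 of 50, CMGC 6 and 10 of 54, and the tyrosine kinases 9 and 13 of 70. Metabolic kinases had 4 and 12 of 48, and atypical kinases 4 and 12 of 37. The other families had medians between -0.15 and 0.05. The difference between families was not tested.

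**Figure D5:**
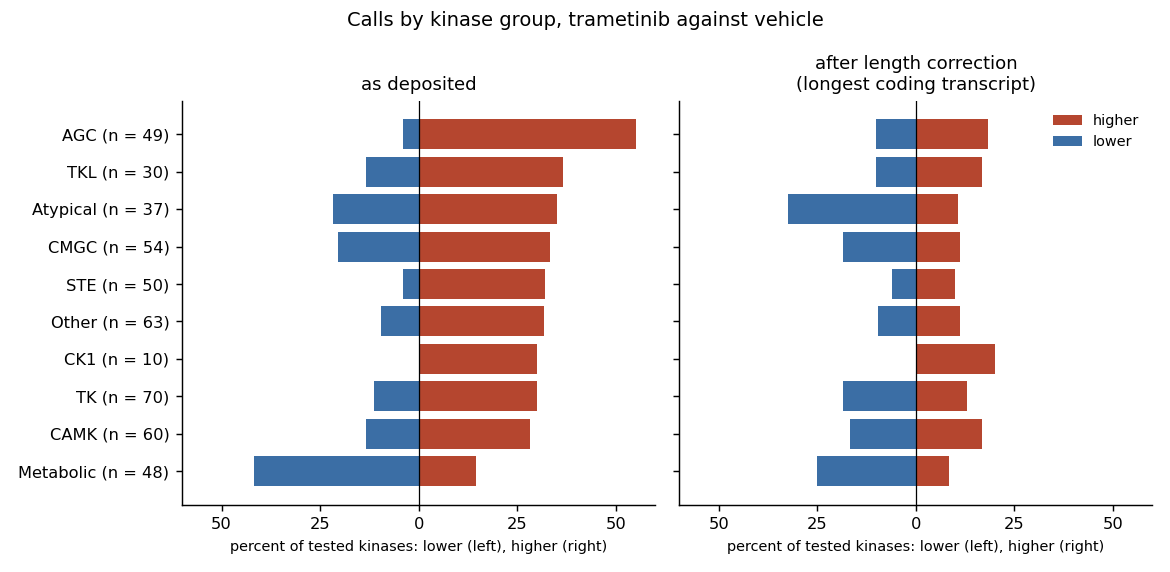
Percent of tested genes higher (right of 0) and lower (left of 0) in trametinib hearts at an adjusted p below 0.05, for each kinase family annotated in the deposited table, with the number tested, before (left panel) and after (right panel) the length correction. The AGC bar reaches 55.1% higher and 4.08% lower before it, and after it 9 of the 49 AGC genes are higher and 5 lower.

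Genes around these kinases were taken from 10 lists, whose counts stand beside 21.6% higher and 22.8% lower of all genes, or 12.9% and 15.9% after the length correction. AGC kinases beyond the members had 8 tested, of which 2 were higher, among them the cyclic AMP-dependent kinase Prkx (0.62 ± 0.10, adjusted p = 0.00248), and 2 lower, and after the length correction 1 was higher and 2 lower. The length and GC correction ended the Prkx call (0.29, adjusted p = 0.0578). Stk32b, a little-studied AGC kinase, was lower by a log2 fold change of -2.50 ± 0.59 (11 ± 6.48 against 63.2 ± 29.0; adjusted p = 0.0116). Of 14 genes regulating protein kinase A, 5 were higher and 2 lower (4 and 1 after the length correction). They included the anchoring proteins Akap6 (0.77 ± 0.06, 0.19 after the length correction) and Akap1 (0.36 ± 0.07, 0.27), and the regulatory subunit Prkar2a (0.55 ± 0.07, 0.32), each past the threshold with and without that correction.

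Of 18 genes of the PDK1, mTORC2 and AKT axis, 12 were higher and 2 lower, against 21.6% and 22.8% of all genes, and after the length correction 2 were higher and 1 lower, against 12.9% and 15.9%. The PI3-kinase regulatory subunit Pik3r1 had 0.99 ± 0.08 (0.62 after the length correction, adjusted p = 0.00159) and the mTORC1 scaffold Rptor 0.46 ± 0.07 (0.12, adjusted p = 0.203). Of 11 RSK and S6 kinase activators and substrates, 2 were higher, the kinase Gsk3b (0.66 ± 0.06, 0.25 after the length correction) and the transcription factor Creb1 (0.73 ± 0.10, 0.31, adjusted p = 0.0514), and 4 lower, such as the pro-apoptotic Bad (-0.66 ± 0.10, -0.36). After that correction 1 of the 11 was higher and 3 lower.

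Of 17 genes of the ROCK axis, 4 were higher and 6 lower (3 and 4 after the length correction), where 21.6% of all genes were higher and 22.8% lower. The guanine nucleotide exchange factor Arhgef12 had 0.74 ± 0.07 (0.25 after the length correction), the myosin phosphatase subunit Ppp1r12a, a ROCK substrate, 0.48 ± 0.06 (0.34) and the muscle cofilin Cfl2 -0.51 ± 0.06 (-0.51). Of 15 Hippo genes, 4 were higher and 2 lower (2 and 2 after the length correction), beside the same shares of all genes, with the YAP partner Tead1 at 0.90 ± 0.06 (0.44), the upstream regulator Nf2 at 0.54 ± 0.08 (0.34) and Mob2, a partner of NDR kinases, at -0.60 ± 0.09 (-0.45). Of 8 genes of the MASTL axis, 3 were lower and the other 5 did not pass, and after the length correction 2 were higher and 3 lower. Those lower without a correction were its substrates Arpp19 (-0.34 ± 0.06) and Ensa (-0.23 ± 0.05) and the phosphatase subunit Ppp2r1a (-0.19 ± 0.05), which lost its call without trametinib replicate 1 or 2 or vehicle replicate 3 (adjusted p up to 0.0569) and after the length correction (-0.10, adjusted p = 0.156), and the length and GC correction turned its sign (0.21, adjusted p = 0.0304).

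Of 15 genes of protein kinase C activation, 5 were higher and 3 lower (3 and 4 after the length correction). The phospholipases Plcb1 (1.16 ± 0.12, 0.79 after the length correction) and Plcb4 (0.99 ± 0.07, 0.74) were higher, and the kinase C anchor Gnb2l1, also called RACK1, was lower (-0.66 ± 0.07, -0.33). Of 11 GRK and beta-adrenergic genes, 2 were higher, the cardiac adenylyl cyclases Adcy5 (0.96 ± 0.06, 0.60 after the length correction) and Adcy6 (0.56 ± 0.09, 0.25, adjusted p = 0.0551), and 1 was lower, the stimulatory G protein gene Gnas (-0.18 ± 0.05), and after that correction 1 was higher and 1 lower. The Gnas call was lost without trametinib replicate 2 or 3 or vehicle replicate 1 or 2 (adjusted p up to 0.0822), with quantile normalization (-0.11, adjusted p = 0.174) and with median-of-ratios scaling (-0.16, adjusted p = 0.0735). Of 10 cyclic GMP genes, 1 was higher, the phosphodiesterase Pde3a (0.92 ± 0.07, 0.39), and 2 were lower, the phosphodiesterase Pde9a (-1.13 ± 0.17, -0.96) and the guanylyl cyclase subunit Gucy1b3 (-0.36 ± 0.11), whose call was lost without any heart but vehicle replicate 2 (adjusted p up to 0.102). After the length correction these counts were 1 and 2.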

How the data were processed

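The table deposited by the authors holds 1 normalized signal per gene and heart, which the values show to be estimated counts divided by a scaling factor for each library. Libraries came from a stranded mRNA kit on a single-end NextSeq run, and RNA was isolated with either of 2 kits (which heart had which is not given in the sources used here), per the labels' protocols. Picard 1.64, SAMtools, RSEM, DESeq2 and mm9 are named without role per the submitters' processing notes. In each library 87.5% to 89.4% of low values (under 50 steps) lay within 0.05 of whole multiples of its smallest step. That was too few to recover exact reads, so limma 3.58.1 (R 4.3.3) was run on log2(value + 1) with a mean-variance trend, two-sided. The estimated depth is approximate, being each library's total divided by that step. Voom and thinning used values so divided and rounded. Fold changes understate the change of low genes.

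The 13581 genes with a mean of at least 10 were tested and adjusted by Benjamini-Hochberg at 0.05. Of the table's 21705 rows, 26 symbols that had become numbers were restored, 21562 identifiers matched RefSeq, and 1 value column without a label was not used. Lengths came from GENCODE M21 transcripts (99.5% of tested genes), and lowess spans were 0.3. Shares used exact permutation. The code was tested on simulated data. Members, lists and the naming rule were chosen with earlier results of these data known. That rule gives per-heart values for up to 20 called members with separate arms by smallest p and for 15 chosen kinases, up to 3 genes per list by smallest p, and Mapk3. Certain genes it covers are not reported here. Rps6kb2 and Sgk3 were added to it after their values were seen. Alternatives were other scalings, filters, pseudocounts, each heart left out, the replicate block, length corrections, voom and thinning. No protein sequence was used here.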

Additional observations from a re-analysis of the deposited data

How the results depend on the processing

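The 25 higher members became 8 after the length correction and stayed between 17 (without trametinib replicate 1) and 25 with a heart left out. The 2 lower members became 5 after the length correction, 1 after the length and GC correction, 1 with that correction and the replicate block, and 2 to 4 with a heart left out (4 without vehicle replicate 2, where Rps6kb2 and Grk6 passed too). Over all genes the length correction gave 1738 higher, in place of 2939, and the length and GC correction with the replicate block 2049 lower, in place of 3098. The cause was not tested. With estimated reads thinned to a common depth, 24 members were higher and 3 lower, where 20.7% and 21.9% of all genes were. With voom on estimated reads the counts were 25 and 3, beside 21.1% and 23.1% of all genes. The replicate block alone gave 24 higher and 2 lower members (21.2% of all genes in either direction), with Stk38 no longer past the threshold (adjusted p = 0.0545). Deviations of same-numbered hearts correlated at 0.24, 0.019 and 0.50. Trametinib replicate 2 correlated best with vehicle replicate 1, and the other trametinib hearts with the vehicle heart of their own number. With so few hearts per arm, these values cannot decide whether the numbers pair the hearts.

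Some signs turned. After the length correction the log2 fold changes were Prkca -0.30, Prkcz -0.01, Rps6ka5 -0.26, Cdc42bpb -0.07, Lats1 -0.06, Mast2 -0.04, Mast3 -0.20 and Mapk3 0.05. After the length and GC correction, with and without the block, they were Prkca -0.15, Rps6ka4 0.17, Rps6ka5 -0.25, Lats1 -0.12, Ppp2r1a 0.21 and Mapk3 0.16. Quantile normalization gave Prkcq 0.04. With a heart left out, values ran from -0.14 to 0.08 for Prkcq, -0.23 to 0.06 for Pkn3, -0.09 to 0.23 for Rps6ka1, -0.14 to 0.07 for Rps6ka2, -0.09 to 0.01 for Rps6ka4, -0.03 to 0.08 for Rps6ka5, -0.48 to 0.14 for Mastl and -0.07 to 0.18 for Mast3. Of these, Cdc42bpb, Lats1, Mast2, Ppp2r1a and Mapk3 had passed the threshold. With 3 hearts per arm and fewer estimated reads in vehicle hearts, low members such as Mastl are poorly resolved.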
